A study of Mus musculus with 6 samples.

Results

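The proteasome is the barrel-shaped protease that degrades ubiquitin-tagged proteins and makes most of the peptides shown on MHC class I. Its core particle is built of stacked alpha and beta rings, and its 19S cap recognises, unfolds and feeds in the tagged protein. Medullary thymic epithelial cells (mTECs) also express immune forms of several beta subunits, which replace the constitutive ones in the core. The genes described here are the constitutive subunits with their assembly chaperones and alternative activators. They were chosen by symbol, as all genes named Psma to Psmg with a digit, without the immune or thymus-type genes Psmb8, Psmb9, Psmb10, Psmb11, Psme1 and Psme2. This gave 43 of 20443 genes. They comprised 15 core genes (8 alpha and 7 beta), 17 cap genes (6 ATPases and 11 non-ATPases), 3 chaperones of cap assembly, 4 chaperones of core assembly, 3 genes of other activators or an inhibitor, and Psmc3ip. Psmc3ip matches the name only, since it encodes a partner of meiotic recombination and no proteasome subunit.

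RNA was sequenced from mTECs sorted by flow cytometry from C57BL/6 mice aged 4 weeks. The control group (Con) was Jmjd3fl/fl and held 3 libraries, Con_253, Con_261 and Con_264. The Jmjd3-deficient group (cKO) was Jmjd3fl/fl-Foxn1-cre and held the 3 libraries cKO_262, cKO_263 and cKO_265. Jmjd3, gene symbol Kdm6b, removes repressive methyl marks from lysine 27 of histone H3, and Foxn1-cre acts in thymic epithelium as a whole, cortex included. The controls carried no Cre, so the loss of Jmjd3 and the presence of Cre cannot be told apart. Values are FPKM (fragments per kilobase of transcript, relative to the mapped fragments of the library) as the authors deposited them. Values for single libraries follow the order Con_253, Con_261, Con_264 for the controls and cKO_262, cKO_263, cKO_265 for the deficient libraries. The read depth behind them is unknown.

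Kdm6b measured 18.1, 17.1 and 9.998 FPKM in control and 11.1, 11.6 and 8.67 FPKM in deficient libraries. The groups overlapped through Con_264, and the log2 difference of -0.45 (SE 0.23) missed the threshold (adjusted p = 0.418, limma). It was -0.70 without Con_264, -0.19 without Con_253 and cKO_265 together and -0.75 with libraries scaled to a common total, and among the settings run it passed the threshold only with limma's library weights (-0.53, adjusted p = 0.039). The value covers the whole gene and the labels do not name the deleted part, so it does not check the labels. Markers of mTECs were present, with 15 of 16 listed symbols found in the tables, all 15 tested, and a summed level of 18157 to 20301 FPKM in the controls and 16988 to 20762 FPKM in the deficient libraries. Thymocyte markers summed to 43.7 to 71.5 FPKM in the controls and 30.6 to 39.96 FPKM in the deficient libraries, with 5 of the 9 tested genes lower without overlap and 0 of 11 at 0 in any library. Myeloid markers summed to 335 to 374 FPKM in the controls and 250.3 to 288 FPKM in the deficient libraries, with 6 of 7 listed symbols found and 0 of these at 0 in any library. Lyz2 made up most of these sums, at 362, 324 and 347 FPKM in control and 267, 242 and 275 FPKM in deficient libraries. It was the 1 gene of the 5 tested that was lower without overlap, and 1 of the 5 had a higher value. Over all tested genes 11.9% were lower without overlap. Endothelial markers summed to 7.17 to 7.52 and 4.77 to 5.27 FPKM, with 0 of 5 at 0 in any library. The groups overlapped for the sums of cortical epithelial markers (331.99 to 421 and 366 to 545 FPKM), fibroblast markers (32.8 to 40.5 and 29.7 to 35.9 FPKM) and B-cell markers (38.8 to 51.7 and 40.8 to 56.0 FPKM, with 1 of 5 at 0 in some library). Cell division markers summed to 149 to 174.2 FPKM in the controls and to 174.4 to 198 FPKM in the deficient libraries, a narrow gap. Of these 6 genes, 1 was higher without overlap, against 9.59% of all tested genes, and 1 had a lower value. The part of these other cells in the results below was not tested. The library cKO_265 lay far from the rest on the leading principal axis of all tested genes, at 53.0, where the other libraries lay between -22.7 and 7.42. Con_253 was the only library with more than trace Y-linked expression (Eif2s3y at 7.88 FPKM, at most 0.0409 FPKM elsewhere). The summed FPKM of a library was 503908 ± 41114 in control and 619346 ± 31808 in deficient libraries (SD, n = 3 each), a ratio of 1.23.

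Core particle genes had higher levels in the Jmjd3-deficient mTECs, most of all in the beta ring, but no single gene passed the test over all genes. The summed FPKM of the core genes was 2254, 1985 and 2012 in control and 2529, 2718 and 3165 in deficient libraries. Each deficient library lay above each control, and the ratio of the means was 1.35. The summed FPKM of the cap genes was 1266, 1199 and 1188 in control and 1318, 1366 and 1436 in deficient libraries. These groups did not overlap either, at a ratio of 1.13. With every library scaled to the same total, the core ratio was 1.09 with overlapping groups and the cap ratio turned to 0.916, with each deficient library below each control. In that scaling the median of all tested genes lay at -0.30 on the log2 scale, against -0.04 as deposited, so the scaling sets the sign of the cap's difference. In bulk RNA, a larger share of cells with high proteasome expression and more proteasome RNA per cell cannot be told apart.

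**Figure D1:**
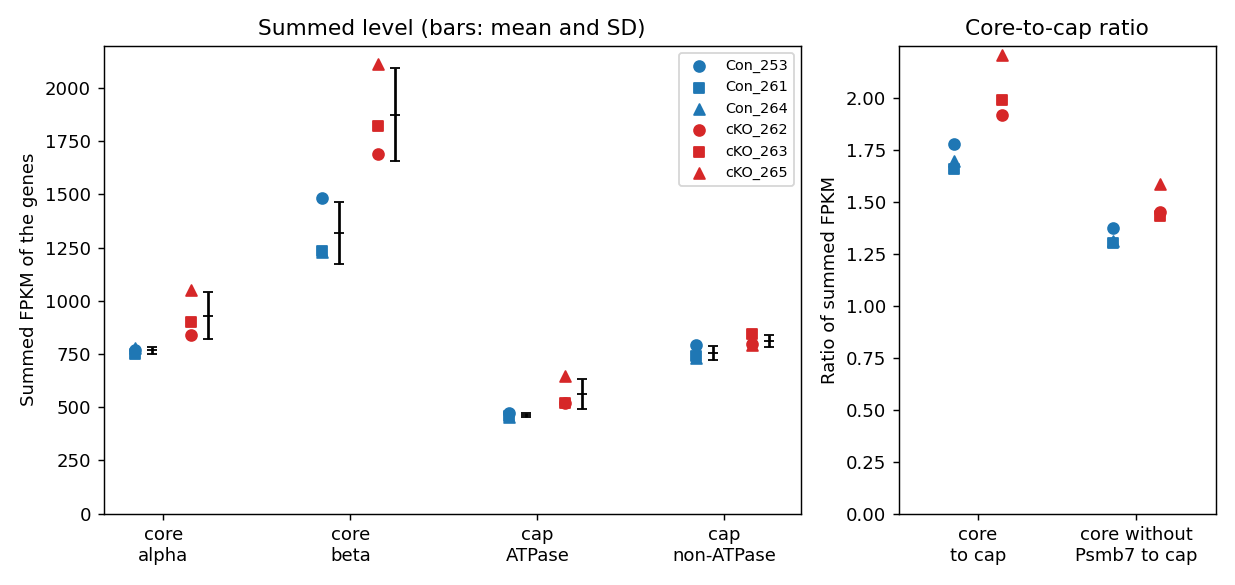
Left, summed FPKM of the alpha, beta, ATPase and non-ATPase genes in each library, with the mean and SD of each group (n = 3 each) beside the points. Right, the ratio of summed core to summed cap FPKM in each library, with and without Psmb7. The beta sum was 1317 ± 145 in control and 1875 ± 217 in deficient libraries, and both ratios were higher in each deficient library than in any control.

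The ratio of core to cap within a library is not changed by multiplying all values of a library by 1 factor. It was not computed under quantile normalization, which changes genes by level. It was 1.78, 1.66 and 1.69 in control and 1.92, 1.99 and 2.204 in deficient libraries, so the groups did not overlap. Psmb7 alone made up 22.3% ± 0.682 of the core sum in the controls and 26.8% ± 2.16 in the deficient group (SD, n = 3 each). With Psmb7 left out, the ratio was 1.37, 1.30 and 1.31 in control and 1.45, 1.43 and 1.59 in deficient libraries, still without overlap. The core genes were also the higher group in level, with a median gene at 127 FPKM against 74.1 FPKM for the cap, a property that goes with the difference as described further on. Its part in the ratio was not tested.

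Gene by gene, differences are given as deficient minus control on log2(FPKM + 1), with the standard error (SE) of a limma fit over 15720 genes that averaged 0.5 FPKM or more. Of the 43 genes, 42 were tested, and 0 passed at an adjusted p under 0.05, where 0.0763% of all tested genes did. At an unadjusted p under 0.05, 11 were higher and 0 lower, against 6.81% higher and 7.82% lower among all tested genes. In 14 of the 42 every deficient library was above every control, against 9.59% of all tested genes, and in 0 every deficient library was below, against 11.9%. Of these 14, 8 were core genes, 5 were cap genes and 1 was a core chaperone. The library cKO_265 was the highest of the 6 for 9 of the 14 tested core genes and for 5 of the 17 cap genes. Con_253 was the highest control for the core sum. Without it 20 genes were higher without overlap, and without both Con_253 and cKO_265 23 were. Fewer libraries make such a count larger by construction, and over all tested genes it went from 1507 to 2165 and to 3440. Scaling changed the split. Quantile normalization gave 5 genes without overlap that were higher and 2 that were lower, and scaling to a common total gave 3 higher and 9 lower, where all tested genes gave 375 higher and 4746 lower.

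**Figure D2:**
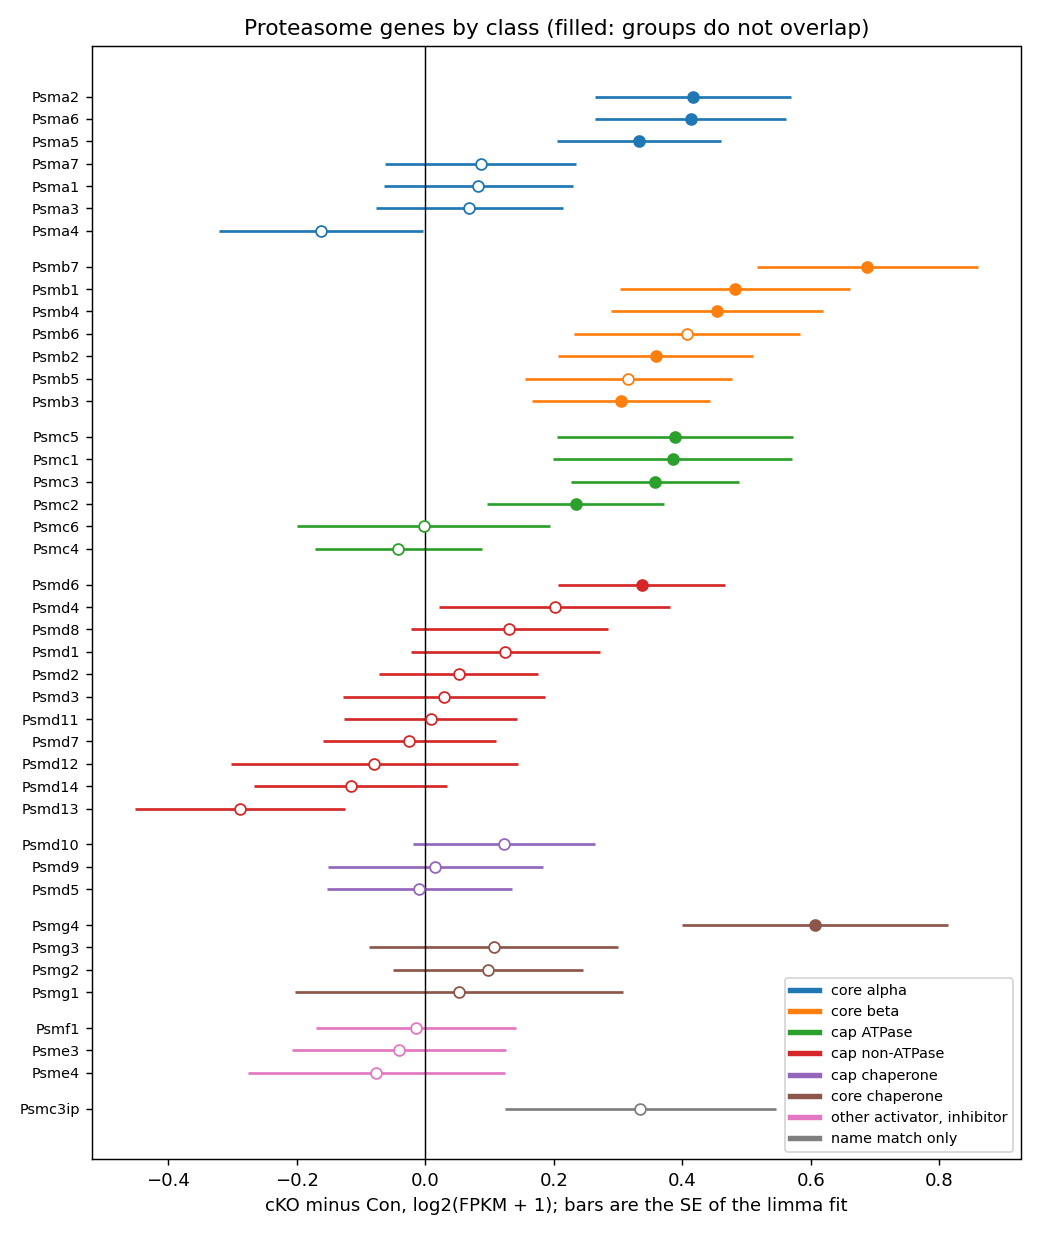
Difference between deficient and control libraries on log2(FPKM + 1) for the 42 tested genes, ordered within each class, with the SE of the limma fit as bars. Filled points mark the 14 genes whose groups do not overlap. All 7 beta genes lie right of 0, the non-ATPase genes spread around 0, and 0 genes passed the adjusted test.

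The beta ring carries the active sites, on its inner face. All 7 of its genes were higher in the deficient group, with a median of 0.41 and a range of 0.30 to 0.69, where the median of all tested genes was -0.04. The median was 0.53 without Con_253, and it stayed positive under quantile normalization (0.20) and with libraries scaled to a common total (0.11). Psmb7, the trypsin-like catalytic subunit, had the highest level of all the genes described and the largest difference. Psmb7 measured 514, 427 and 454 FPKM in control and 615, 764 and 887 FPKM in deficient libraries. Its lowest deficient library was above the highest control, and the means were 465 ± 44.5 and 755 ± 136 FPKM (SD, n = 3 each). The log2 difference was 0.69 (SE 0.17, limma, unadjusted p = 0.0035, adjusted p = 0.155), and with 1 library left out it ranged from 0.56 to 0.83. It was 0.32 under quantile normalization and 0.39 on the common total.

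The other catalytic genes overlapped between groups through Con_253. Psmb5, the chymotrypsin-like subunit, measured 70.4, 57.5 and 48.2 FPKM in control and 69.7, 72.2 and 75.5 FPKM in deficient libraries. Its log2 difference was 0.32 (SE 0.16, limma adjusted p = 0.412), with 0.18 without Con_264 and 0.02 on the common total. Psmb6, the caspase-like subunit, measured 74.7, 59.9 and 55.3 FPKM in control and 99.3, 70.8 and 82.9 FPKM in deficient libraries. Its log2 difference was 0.41 (SE 0.18, limma adjusted p = 0.335). Psmb5 and Psmb6 were thus the lowest genes of the ring in level, while Psmb7, which stands in the same ring in equal number, was about 9.30 times above Psmb5 in mean FPKM. FPKM is per length, but the cDNA was amplified before sequencing, and the share of this gap made by amplification was not tested.

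The non-catalytic beta genes did not overlap between groups in the values as deposited. On the common total their log2 differences were smaller, at 0.16 for Psmb4, 0.19 for Psmb1, 0.06 for Psmb2 and 0.0073 for Psmb3. Psmb4 measured 282, 199 and 202 FPKM in control and 318, 299.5 and 307 FPKM in deficient libraries. Its deficient libraries lay close together, and 1 control, Con_253, came near them (log2 difference 0.45, SE 0.17, limma adjusted p = 0.2595). Psmb1 measured 111, 91.2 and 96.1 FPKM in control and 115, 133 and 175 FPKM in deficient libraries. Here cKO_262 lay just above Con_253, and cKO_265 was far the highest (0.48, SE 0.18, and 0.32 without it). Psmb2 measured 303, 283 and 261.7 FPKM in control and 342, 325 and 425 FPKM in deficient libraries (0.36, SE 0.15). Psmb3 measured 129.6, 116 and 115 FPKM in control and 131.6, 155 and 161 FPKM in deficient libraries (0.30, SE 0.14). The gap between the groups was narrow for Psmb3, where cKO_262 was next to Con_253.

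**Figure D3:**
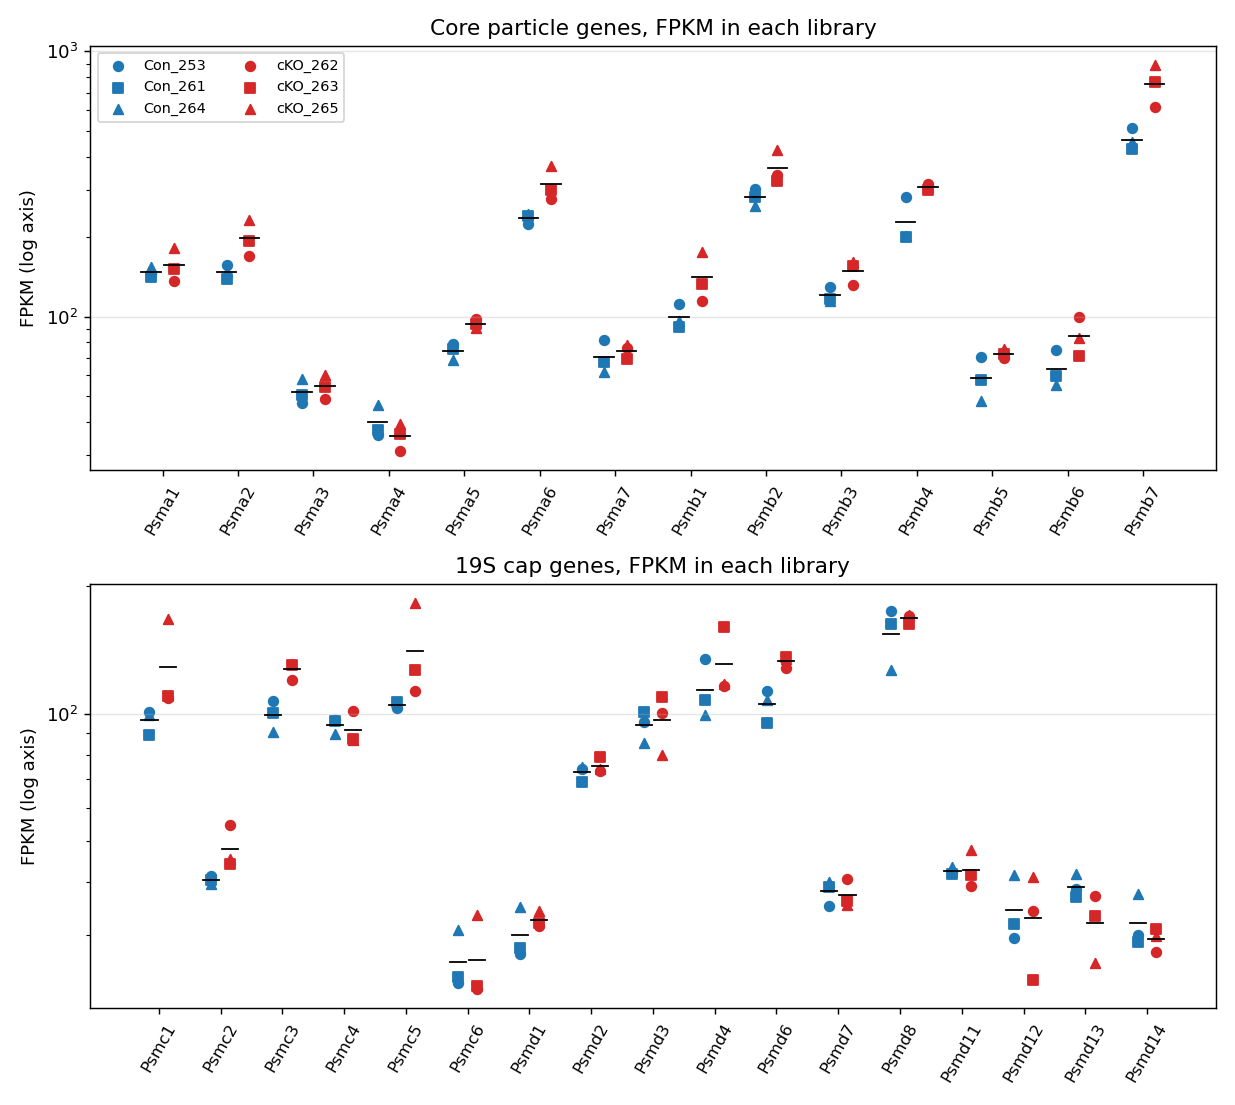
FPKM of each core gene (top) and each 19S cap gene (bottom) in the 6 libraries on a log axis, controls in blue and deficient libraries in red, with the group means as short lines. Psma8, listed between 0 and 0.397 FPKM, is not drawn. Psmb7 is the highest gene drawn in all 6 libraries, at 427 to 887 FPKM.

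Each constitutive catalytic subunit has an immune counterpart that takes its place, and the constitutive share of the pair is a ratio within a library. Psmb5 made up 27.7%, 25.5% and 25.5% of the summed FPKM of Psmb5 and Psmb8 in the controls and 27.9%, 28.5% and 30.2% in the deficient libraries. The groups did not overlap, and the difference of 2.59 percentage points had an exact permutation p of 0.1 (2-sided; adjusted over the 3 pairs, p = 0.3), the smallest that 3 against 3 libraries allow. Psmb6 made up 32.1% ± 0.645 of its pair with Psmb9 in the controls and 30.8% ± 2.01 in the deficient group (SD, n = 3 each, exact permutation p = 0.4). The difference of -1.31 percentage points was -2.46 without cKO_262, where the groups did not overlap, and -0.56 without cKO_263. Psmb7 made up 66.4% ± 4.71 of its pair with Psmb10 in the controls and 67.7% ± 7.81 in the deficient group (SD, n = 3 each, exact permutation p = 0.8). Its difference of 1.29 percentage points turned to -0.64 without Con_253 and to -3.01 without cKO_265. In all 6 libraries the immune gene thus had the higher FPKM in the pairs of Psmb5 and Psmb6, and the constitutive gene in the pair of Psmb7. The part of amplification in these gaps between genes was not tested.

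Alpha-ring genes form the outer gate of the core. Of the 7 tested alpha genes, 6 had higher and 1 had lower values in the deficient group, with a median of 0.09 that turned negative under quantile normalization (-0.05) and on the common total (-0.21). The median was 0.20 without Con_253, 0.15 without Con_264, 0.17 without cKO_262 and 0.14 without cKO_263, and it was 0.05 without cKO_265. The ring was split between 3 genes without overlap and 4 genes with overlap. Psma6 measured 224, 240 and 243 FPKM in control and 278, 302 and 369 FPKM in deficient libraries, so the groups were separate as deposited (log2 difference 0.41, SE 0.15, limma adjusted p = 0.254). Psma2 measured 156, 138 and 147 FPKM in control and 169.9, 193 and 232 FPKM in deficient libraries (0.42, SE 0.15). Psma5 measured 79.2, 75.5 and 68.7 FPKM in control and 97.7, 93.7 and 90.4 FPKM in deficient libraries, without overlap (0.33, SE 0.13). On the common total the differences were 0.11 for Psma6, 0.12 for Psma2 and 0.04 for Psma5. Psma4 was the lowest tested core gene, at 35.7, 37.5 and 46.6 FPKM in control and at 31.2, 36.1 and 39.2 FPKM in the deficient libraries, and its groups overlapped (-0.16, SE 0.16, with -0.05 without Con_264 and -0.07 without cKO_262). Psma1, Psma3 and Psma7 had differences of 0.08, 0.07 and 0.09. Psma8, a testis form of the alpha subunit Psma7, was the 1 untested gene, at 0, 0.222 and 0.397 FPKM in control and at 0.0392, 0.0789 and 0 FPKM in the deficient libraries.

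The ATPase ring of the cap unfolds substrates and docks on the alpha ring. Of its 6 genes, 4 did not overlap between groups, all higher in the deficient libraries, and the median of 0.30 was 0.19 without cKO_265 and 0.0005 on the common total. Psmc3, whose tail helps to open the alpha gate, measured 107, 100.5 and 90.3 FPKM in control and 120.04, 131 and 131 FPKM in deficient libraries (log2 difference 0.36, SE 0.13, limma adjusted p = 0.261). Its groups were tight and separate as deposited, and its difference was 0.06 on the common total. Psmc5 measured 103, 107 and 105 FPKM in control and 113, 127 and 182 FPKM in deficient libraries, and Psmc1 was at 101, 88.9 and 99.3 FPKM and at 109, 109.97 and 167 FPKM. In both genes cKO_265 stood far above the other deficient libraries. The differences of 0.39 (SE 0.18) and 0.38 (SE 0.19) had limma adjusted p of 0.373 and 0.385, and they were 0.19 and 0.18 without that library. Psmc2 measured 41.3, 40.5 and 39.6 FPKM in control and 54.5, 44.1 and 45.3 FPKM in deficient libraries (0.23, SE 0.14), with a difference of 0.14 without cKO_262 and a direction that turned on the common total. Psmc4 measured 96.8, 96.1 and 89.6 FPKM in control and 101.2, 87.01 and 86.8 FPKM in deficient libraries, with overlap (-0.04, SE 0.13). Psmc6, the lowest ATPase gene, measured 23.1, 23.96 and 30.9 FPKM and 22.4, 22.7 and 33.4 FPKM, and 1 library of each group stood above the others (-0.0024, SE 0.20).

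The non-ATPase subunits form the scaffold, the ubiquitin receptors and the lid of the cap. Of these 11 genes, 7 had higher and 4 had lower values, with a median of 0.03 that turned negative under quantile normalization (-0.10) and on the common total (-0.27). Psmd6, a lid subunit, was the 1 gene of this class whose groups did not overlap. It measured 113, 95.1 and 108 FPKM in control and 128, 136 and 135 FPKM in deficient libraries (log2 difference 0.34, SE 0.13, limma adjusted p = 0.283). On the common total its difference was 0.04. Psmd13, another lid subunit, had the most negative value of all the genes described, at 38.5, 36.8 and 41.8 FPKM in control and at 37.2, 33.3 and 25.8 FPKM in the deficient libraries. Its groups overlapped through cKO_262 (-0.29, SE 0.16, limma adjusted p = 0.460). The difference was -0.14 without cKO_265 and -0.59 on the common total. Psmd14, the deubiquitinase of the lid and the lowest gene of the class, measured 30.1, 28.9 and 37.4 FPKM in control and 27.3, 31.1 and 29.9 FPKM in deficient libraries (-0.12, SE 0.15), with a difference of -0.0041 without Con_264, -0.19 without Con_261 and -0.07 without cKO_262. Psmd8 was the highest gene of the class, with 174, 163 and 127 FPKM in control and 169.6, 162.9 and 171 FPKM in deficient libraries (0.13, SE 0.15), with a sign that turned under quantile normalization, on the common total and without Con_264. The ubiquitin receptor gene Psmd4 was at 0.20, and the scaffold genes Psmd1 and Psmd2 were at 0.12 and 0.05. Psmd3, Psmd7, Psmd11 and Psmd12 lay between -0.08 and 0.03.

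Chaperones pair with assembly intermediates and leave the finished particle. Psmg4, a chaperone of early alpha-ring assembly, measured 106, 94.3 and 63.3 FPKM in control and 114, 149 and 134 FPKM in deficient libraries, without overlap. The log2 difference of 0.61 (SE 0.21, limma adjusted p = 0.240) was the second largest of the genes described, and both of its rows in the tables were higher in group mean. The difference was 0.39 without Con_264 and 0.31 on the common total. The first row was at 24.9 to 42.9 FPKM in control and at 51.7 to 56.7 FPKM in the deficient libraries, and the second at 38.4 to 62.9 FPKM and 62.2 to 91.9 FPKM, where the groups overlapped by a small margin. The other core chaperones Psmg1, Psmg2 and Psmg3 overlapped, with differences of 0.05, 0.10 and 0.11. Psmg1 measured 25.2, 15.3 and 16.1 FPKM in control and 25.9, 18.8 and 14.2 FPKM in deficient libraries. Psmg3, the lowest, measured 11.8, 8.21 and 8.37 FPKM and 11.4, 10.8 and 8.39 FPKM, and its difference ranged from 0.02 without Con_261 to 0.26 without Con_253.

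All 3 chaperones of the cap had overlapping groups. Psmd5 measured 34.2, 37.9 and 39.7 FPKM in control and 32.9, 37.2 and 41.2 FPKM in deficient libraries (-0.01). Psmd9 measured 12.8, 13.0 and 9.77 FPKM and 12.6, 12.5 and 10.7 FPKM (0.02), with Con_264 and cKO_265 low. Psmd10 measured 11.6, 13.5 and 12.4 FPKM and 14.2, 13.7 and 13.2 FPKM (0.12, and 0.07 without Con_253). The alternative activators also overlapped. Psme3, a nuclear activator, measured 31.9, 33.7 and 28.5 FPKM in control and 36.1, 31.1 and 25.1 FPKM in deficient libraries. Psme4, which caps the core in place of the 19S particle, measured 6.00, 6.71 and 9.08 FPKM and 5.94, 6.30 and 8.19 FPKM. The inhibitor gene Psmf1 measured 13.6, 13.2 and 13.4 FPKM and 14.1, 14.8 and 11.2 FPKM. These 3 genes had differences of -0.04, -0.08 and -0.01. Psmc3ip measured 3.59, 3.30 and 4.45 FPKM in control and 5.42, 3.66 and 6.21 FPKM in deficient libraries, with overlap (0.33, SE 0.21, with 0.52 without cKO_263 and 0.20 without cKO_265).

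The differences went with the level of the gene. All 15 genes averaging 100 FPKM or more over the 6 libraries had higher values in the deficient group, with a median of 0.38. Of these, 12 did not overlap. Among all 843 tested genes at that level the median was 0.28, and 42.6% did not overlap with higher values and 3.56% with lower values. The mean that sets the level includes the deficient libraries. Psmb1, Psmc1, Psmc3 and Psmg4 had control means of 99.5, 96.4, 99.3 and 87.8 FPKM and reached 100 FPKM only through the deficient group. All of them are among the 12 without overlap. Below 100 FPKM, 2 of 27 genes did not overlap, Psma5 and Psmc2, and the median was 0.03. At 50 to 100 FPKM 12.5% of 8 genes were higher without overlap, against 24.1% of all tested genes in that range. At 20 to 50 FPKM it was 8.33% of 12 genes against 15.8%. The share was 0 of 6 genes at 5 to 20 FPKM, against 7.55% of all tested genes there. With ranges set by the mean of all 6 libraries, the proteasome genes lay above the share of all tested genes only at 100 FPKM or more. By control mean, Psmb1, Psmc1, Psmc3 and Psmg4 would fall at 50 to 100 FPKM. Shares in ranges of the control mean were not computed, so the limit at 100 FPKM may depend on this choice. Of the core genes at or above 100 FPKM 7 of 8 did not overlap, at a median of 0.41, and of the cap genes at that level 4 of 6 did not, at a median of 0.35. Below 100 FPKM the medians were 0.20 for 6 core genes and -0.0024 for 11 cap genes. Across the 31 tested core and cap genes the difference followed log2 mean FPKM with a Pearson r of 0.76 (Spearman rho 0.75), a description over genes that share the same 6 libraries. Over all 15720 tested genes r was 0.26. Transcript length, taken as the median of a gene's protein-coding GENCODE transcripts, had an r of -0.05 among these 31 genes. Over the 14800 tested genes with such a length r was -0.12. These medians, such as 659 bases for Psmd2, need not be the length of the transcript expressed here, so they do not decide on a relation to length. The level threshold of 100 FPKM was chosen after the values were seen.

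**Figure D4:**
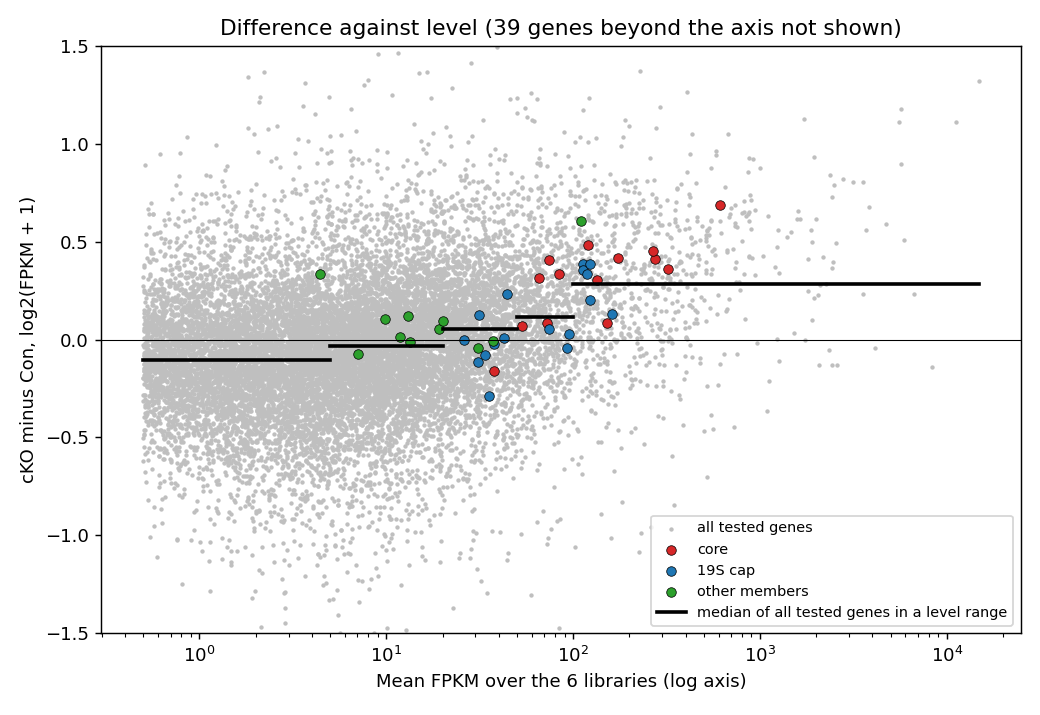
Difference between deficient and control libraries on log2(FPKM + 1) against mean FPKM (log axis) for all tested genes (grey), core genes (red), cap genes (blue) and the other genes described (green), with black lines at the median of all tested genes in each level range. The median climbs from -0.10 at 0.5 to 5 FPKM to 0.28 at 100 FPKM and above, and all 14 core and cap genes above 100 FPKM lie above 0. The 39 genes beyond the axis are not drawn.

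Widely used reference genes were set beside them. Of 14, 4 were higher and 2 lower without overlap, at a median of 0.19, against 9.59% higher and 11.9% lower among all tested genes. The 4 higher ones were among the 7 reference genes of at least 100 FPKM, whose median was 0.38, and the 7 below that level had a median of -0.07. Their differences ran from -0.50 for Polr2a to 0.63 for Rplp0, and Eef1a1, at the highest level, was at -0.13. Gapdh, of glycolysis, had group means of 407 ± 71.3 (control) and 526 ± 41.7 FPKM (deficient; SD, n = 3 each), a log2 difference of 0.38. No test of the proteasome genes against them was made.

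Transcription of constitutive subunits is known to be raised by Nfe2l1, a membrane-bound factor that is released when proteasome activity is short and binds the antioxidant response element with small Maf proteins. Of the 13 genes of this control, 0 were higher and 2 were lower without overlap, and 0 passed the adjusted test, with 2 at an unadjusted p under 0.05 (limma, both lower). Among all tested genes 9.59% were higher and 11.9% lower without overlap, and 7.82% were lower at that unadjusted p. Nfe2l1 itself measured 55.5, 54.7 and 57.1 FPKM in control and 63.2, 49.5 and 44.8 FPKM in deficient libraries, with no consistent side (log2 difference -0.10, SE 0.16). Mafk, a small Maf partner, was at 13.3, 12.4 and 10.6 FPKM and at 10.5, 8.33 and 6.50 FPKM (-0.49, SE 0.19, limma adjusted p = 0.296). Ddi2, the protease that cuts Nfe2l1 free, was at 2.84, 3.89 and 4.13 FPKM and at 1.98, 2.82 and 2.19 FPKM (-0.47, SE 0.19, limma adjusted p = 0.310). In both, the lowest control lay just above the highest deficient library. Ufd1l, a cofactor in membrane extraction, had a difference of 0.31 with overlapping groups, which was 0.19 without cKO_263 and 0.50 without cKO_265.

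The core of the antioxidant response element, TGACNNNGC, was searched on both strands of RefSeq promoter windows (GRCm38.p6, 250 bases before to 50 after the start), in which 35 of the 43 genes were found. Psma8, Psmb1, Psmb2, Psmb7, Psmc3, Psmd3, Psmd7 and Psmg2 were not searched. It occurred in 6 of the 35 genes (17.1%), near its share of 16.9% among the 11601 tested genes with a window. Among all 27025 genes of the table it was 13.99%. The matches are shown because they include the only catalytic genes searched, Psmb5 and Psmb6. They are given with 10 bases on either side where the window allows, 5′ to 3′ on the gene's strand, with the match in capitals. In Psmc6, Psmd12 and Psme4 the match is on the opposite strand.
Psmb5: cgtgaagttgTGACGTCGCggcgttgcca
Psmb6: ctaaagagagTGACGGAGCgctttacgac
Psmd9: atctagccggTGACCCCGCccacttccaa
Psmc6: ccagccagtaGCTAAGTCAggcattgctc
Psmd12: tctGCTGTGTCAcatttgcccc
Psme4: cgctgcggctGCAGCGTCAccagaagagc

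These stretches lie at chr14:54618024-54618052 on the minus strand for Psmb5 and, on the plus strand, at chr11:70525338-70525366 for Psmb6, chr5:123228149-123228177 for Psmd9, chr14:45329587-45329615 for Psmc6, chr11:107479278-107479299 for Psmd12 and chr11:30771758-30771786 for Psme4. The first base of the match was 47 bases before the annotated start in Psmb5 (position -47) and at position -9 in Psmb6. RefSeq lists the Psmb6 gene from 70525324, so its match lies before the start of the window's transcript but within the gene as listed. All 6 genes had overlapping groups, and 0 of the 10 genes in the table whose groups did not overlap held the motif. The box CCAAT, which NF-Y binds, was found in 13 of the 35 genes (37.1%) and in 5 of the 10 without overlap. It was found in 42.3% of the tested genes with a window and in 41.1% of all genes of the table. No gene held both motifs. Psmb3, a gene without overlap, held CCAAT at positions -85 and -43 on its own strand, within chr11:97703339-97703405, shown here with both boxes in capitals.
Psmb3: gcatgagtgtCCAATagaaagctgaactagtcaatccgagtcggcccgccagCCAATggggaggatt

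Of 12 further genes of proteasome structure, maturation and associated enzymes, 4 were higher and 2 lower without overlap, and 0 passed the adjusted test (limma, 3 higher at an unadjusted p under 0.05). Over all tested genes 9.59% were higher and 11.9% lower without overlap, and 6.81% were higher at that unadjusted p. Pomp, the factor that matures the beta ring, measured 49.9, 58.0 and 55.02 FPKM in control and 72.6, 66.7 and 78.9 FPKM in deficient libraries, apart as deposited (log2 difference 0.41, SE 0.14, limma adjusted p = 0.227). Its difference was 0.29 under quantile normalization and 0.12 on the common total. Shfm1, a small lid subunit, was at 170.3, 184 and 144 FPKM and at 198, 236 and 327 FPKM (0.58, SE 0.20, limma adjusted p = 0.240), and its difference was 0.39 without cKO_265. Ublcp1, a phosphatase of the proteasome, averaged 49.6 ± 4.46 and 67.3 ± 10.3 FPKM (SD, n = 3 each; 0.43, SE 0.15).

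The genes lie on many chromosomes of mm10 and all 43 are protein coding in RefSeq. Psmb7 spans chromosome 2 from 38588046 to 38643906, Psmb5 chromosome 14 from 54614120 to 54617995, Psmb6 chromosome 11 from 70525357 to 70527858 and Psmg4 chromosome 13 from 34162977 to 34178172 in the tables. Psmb4 spans chromosome 3 from 94884324 to 94886958 and Psmc3 chromosome 2 from 91054016 to 91059438. For Psma6 the tables give chromosome 12 from 55280814 to 55492647, while RefSeq gives 55384222 to 55418459, and whether its value includes neighbouring transcripts was not tested. Other deposited loci also differ from RefSeq, Psma3 and Psmc3ip among them, and the starts were the same for 24 of the 43 genes. The deposited start of Psmc1 is 100112331 against 100110202 in RefSeq, and that of Psmb6 is 70525357 against 70525324.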

How the data were processed

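RNA of sorted mTECs was isolated on columns and its cDNA amplified with a whole-transcriptome kit for single cells, per the labels' protocols. The authors deposited 1 FPKM table per library, made with Bowtie2 2.2.5 and Cufflinks on mm10 per the submitters' processing notes. For annotation, strand, reads shared between genes and library scaling, the sources used here give nothing. Each table held 25025 rows, and 25 symbols turned into dates were left out. Rows of a symbol were summed. Psmd10 and Psmg4 had several rows. Starts were raised by 1 base to 1-based coordinates.

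After adding 1 and taking log2, limma 3.58.1 (R 4.3.3) compared the groups in the 15720 genes averaging 0.5 FPKM or more. The moderated test was 2-sided and used a trend of variance on mean, Benjamini-Hochberg adjustment ran over all these genes, and the threshold was an adjusted p of 0.05. Adding 1 makes differences of low genes look smaller. The fit was tested on simulated data. Alternatives were other pseudocounts, filters, scalings, row choices, weights and left-out libraries, and the comparison with genes of at least 100 FPKM was added after the values were seen. Promoters are from RefSeq GRCm38.p6 and transcript lengths from GENCODE. Sums and medians of gene classes carry no test. Shares of catalytic pairs were compared with an exact permutation test. Nothing in the labels but the numbers in the titles tells whether libraries came from separate mice, so p-values measure the spread between these libraries. The members, lists and tests were chosen with earlier results of these data known. Genes named are, in each class, those with the smallest p, highest and lowest level and largest difference either way, all without overlap, and the catalytic genes. In other lists they are the 3 genes with the smallest p, except that the ubiquitin list is not reported here. Nfe2l1, Gapdh, Rplp0, Polr2a, Eef1a1 and further members given by value alone were added after their values were seen.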

Additional observations from a re-analysis of the deposited data

How the results depend on the processing

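Alternatives were run on the counts and medians of the core, the cap and their rings, on the sums and pair shares (fewer settings) and on the genes named by rule, without the 5 FPKM floor for Ddi2 and Psmc3ip. None were tabulated for genes added by value alone, for the other lists or for the level ranges, apart from counts over all tested genes. They were 0.1 as pseudocount, all genes unfiltered, a stricter floor of 5 FPKM, median centring, quantile normalization, scaling to a common total, the highest row of a symbol, arrayWeights, no trend, leaving out each library, and leaving out Con_253 and cKO_265 together. The count of genes past the adjusted threshold was 0 in each of these but arrayWeights, which gave 11, beside 3025 calls among all genes. Genes without overlap that were higher numbered 14, and 5 under quantile normalization (2 core, 1 cap), 3 on the common total (1 core, 1 cap), 23 without Con_253 and cKO_265, and 15 to 20 with 1 library left out. Genes without overlap that were lower numbered 0, and 2 under quantile normalization, 9 on the common total, 5 without Con_253 and cKO_265, and 0 to 2 with 1 library left out.

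Under quantile normalization the medians were -0.051 for alpha, 0.20 for beta, 0.14 for the core, 0.14 for the ATPases, -0.10 for the non-ATPases and -0.086 for the cap. On the common total they were -0.21, 0.11, 0.048, 0.00047, -0.27 and -0.25, and the folds of summed FPKM were 1.09 for the core and 0.916 for the cap. Median centring gave 0.11 for the non-ATPases and 0.13 for the cap. Without Con_253 and cKO_265 the ATPase median was 0.20. With 1 library left out, medians ranged from 0.052 to 0.20 for alpha, 0.32 to 0.53 for beta, 0.19 to 0.31 for the ATPases and 0.015 to 0.069 for the non-ATPases. The share of Psmb7 differed by -3.01 to 4.61 percentage points with 1 library left out, and by -4.95 without Con_253 and cKO_265.

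Among named genes, signs turned on the common total for Psmc2 (-0.060), Psmd10 (-0.16), Psmd8 (-0.17), Psmd9 (-0.27) and Psmg3 (-0.17). They turned under median centring for Psmc4 (0.039), Psmc6 (0.079), Psmd5 (0.071), Psme3 (0.039) and Psme4 (0.0049), and under quantile normalization for Psmd8 (-0.10). With arrayWeights Psmd14 was at 0.041 and Psmd9 at -0.047, and without Con_253 and cKO_265 Psmc4 was at 0.015 and Psme3 at 0.11. With 1 library left out, ranges were -0.18 to 0.12 for Psmc6, -0.086 to 0.072 for Psmd5, -0.0058 to 0.22 for Psmd8, -0.11 to 0.088 for Psmd9, -0.16 to 0.094 for Psme3 and -0.20 to 0.076 for Psme4. In each the cause was not tested. No paired analysis was possible because the groups share no replicate numbers.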
